A study of Caenorhabditis elegans with 2 samples.

Results

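This account covers 10 forkhead transcription factor genes of Caenorhabditis elegans other than pha-4, among 19973 nuclear protein-coding genes, and asks where PHA-4 chromatin immunoprecipitation peaks lie at them. The genes are daf-16, lin-31, let-381, unc-130, pes-1, fkh-2, fkh-7, fkh-8, fkh-9 and fkh-10. Each gene was given a window, from 2000 bp upstream of its annotated start to its annotated end, and a peak counted where its summit lay inside. The libraries are 2 biological replicates of 1 group. They come from whole late embryos of mixed sex of strain OP37, which carries unc-119(ed3) III and the insertion wgIs37 with eGFP-tagged PHA-4. The labels used here do not give the promoter that drives the tagged protein. No second condition was measured, so the values below are descriptions without a test.

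Forkhead factors bind DNA through a winged-helix domain that is shared across the family, and they recognise related, AT-rich sites. PHA-4, the FoxA-type member in the worm, specifies the pharynx, the feeding organ, and acts again in adults in the life extension caused by dietary restriction. DAF-16, the FoxO-type member, is the main transcriptional output of insulin signalling. Other members set mesodermal, vulval, neuronal and ciliated fates.

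The deposited lists are relaxed, holding peaks together with background. The ce11 list of replicate 1 held 5607 peaks with a median signal of 2.995, that of replicate 2 held 1729 with a median of 2.32, and a list called on both replicates pooled held 7768 with a median of 2.895. The signal is the authors' value for each peak against the control. Its scaling between libraries is not stated, so it was read only within a list. A q-value of 0.05 or less, as deposited, was held by 5248 peaks of replicate 1, 1330 of the pooled list and 0 of replicate 2, whose smallest q was 0.351. The pooled list contains the reads of both replicates and is no independent repeat of either. Read counts were not in the lists, and the depth behind each value is unknown.

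The strongest peaks at these genes in replicate 1 and in the pooled list lay inside fkh-7, and their sequences are shown first because they carry the forkhead sites described below. Each line gives 201 bases of ce11 (WBcel235, RefSeq sequence), plus strand, 100 bp to each side of a summit. Capitals mark the PHA-4 consensus on either strand, read as T, A or G, T, T, G or T, A or G, and C or T. Matches may overlap, and the form TGTTTAC, the canonical forkhead site, is contained in this consensus. The first 3 lines are the replicate 1 peaks ranked 124, 143 and 182 by signal in that list, at chrIV:5600307-5600507, chrIV:5603409-5603609 and chrIV:5604573-5604773. The fourth is the pooled peak that overlaps the first, at chrIV:5600389-5600589. The fifth is the strongest pooled peak of fkh-9, at chrX:3826245-3826445.
fkh-7 replicate 1 rank 124: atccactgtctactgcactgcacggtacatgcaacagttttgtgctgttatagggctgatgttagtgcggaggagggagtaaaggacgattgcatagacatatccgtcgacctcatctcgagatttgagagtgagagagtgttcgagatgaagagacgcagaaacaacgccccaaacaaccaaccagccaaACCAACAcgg
fkh-7 replicate 1 rank 143: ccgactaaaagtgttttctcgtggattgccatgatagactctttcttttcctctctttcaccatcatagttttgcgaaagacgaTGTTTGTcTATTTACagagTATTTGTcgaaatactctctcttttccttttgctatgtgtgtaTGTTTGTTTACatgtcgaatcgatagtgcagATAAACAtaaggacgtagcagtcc
fkh-7 replicate 1 rank 182: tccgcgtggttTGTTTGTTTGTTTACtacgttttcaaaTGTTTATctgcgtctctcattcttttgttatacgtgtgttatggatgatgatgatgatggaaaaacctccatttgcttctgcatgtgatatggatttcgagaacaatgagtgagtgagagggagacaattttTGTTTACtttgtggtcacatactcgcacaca
fkh-7 pooled rank 87: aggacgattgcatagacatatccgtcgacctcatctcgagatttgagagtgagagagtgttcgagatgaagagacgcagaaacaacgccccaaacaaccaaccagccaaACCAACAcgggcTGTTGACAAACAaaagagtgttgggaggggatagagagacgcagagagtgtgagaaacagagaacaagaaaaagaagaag
fkh-9 pooled rank 2579: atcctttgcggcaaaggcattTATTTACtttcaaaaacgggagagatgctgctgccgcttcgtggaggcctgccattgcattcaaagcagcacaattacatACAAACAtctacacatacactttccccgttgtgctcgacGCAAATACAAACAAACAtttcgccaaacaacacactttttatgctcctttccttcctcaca

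Of the 10 genes, 4 had a summit in replicate 1 (daf-16, fkh-7, fkh-9 and fkh-10), 2 had a summit in replicate 2 (daf-16 and fkh-9) and 6 had one in the pooled list, which added unc-130 and fkh-8. The background share of all nuclear protein-coding genes with a summit in the same kind of window was 23.8% in replicate 1, 8.51% in replicate 2 and 30.7% in the pooled list. Both replicates had a summit at 2 of the 10 genes, against 2.85% of all genes, and at least 1 replicate had a summit at 4 of the 10, against 29.4%. No test was run on these counts. They differed between windows of 10 kb or longer and shorter ones, and the part of window length was not tested. All 3 members with a window of 10 kb or longer had a replicate 1 summit, where 52.6% of all genes that long had one. Of the 7 shorter members 1 had a replicate 1 summit, where 21.4% of genes that short had one. In replicate 2 the counts were 2 of 3 long members, against 21.1%, and 0 of 7 short members, against 7.48%. In the pooled list they were 3 of 3, against 64.2%, and 3 of 7, against 27.9%. Among the 7 shorter members the pooled counts did not rise with length. The 3 with a pooled summit, fkh-10, fkh-8 and unc-130, had the shortest windows, of 3.66, 3.77 and 3.99 kb.

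**Figure D1:**
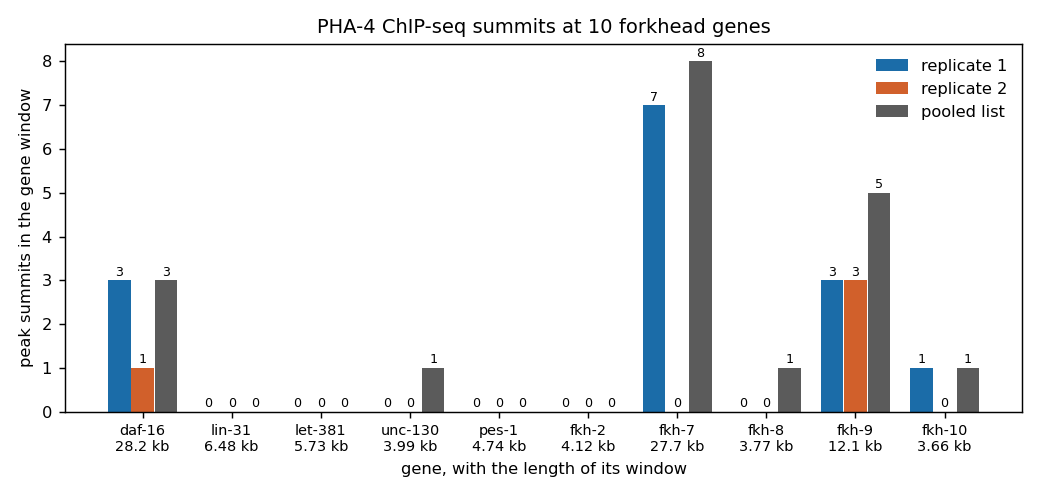
Number of peak summits in the window of each of the 10 forkhead genes (gene body plus 2000 bp upstream), with bars for the ce11 lists of replicate 1, replicate 2 and the pooled alignments. The length of each window in kb stands under the gene name, and most summits fall in the 3 longest windows, those of fkh-7, fkh-9 and daf-16.

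Per length of window, the 10 genes together held 13.9 summits per 100 kb in replicate 1, from 14 summits, where the windows of all nuclear protein-coding genes held 5.67. Replicate 2 held 3.98 per 100 kb, from 4 summits, against 1.8, and the pooled list 18.9, from 19 summits, against 7.9. The excess in replicate 1 rested largely on fkh-7, with 25.3 summits per 100 kb, and on fkh-9, with 24.8. Without fkh-7 the other 9 genes held 9.61 per 100 kb in replicate 1. The 7 genes other than daf-16, fkh-7 and fkh-9 held 3.08 per 100 kb there, from 1 summit in 32.5 kb. In the pooled list these values were 15.1 per 100 kb without fkh-7 and 9.23 in the 7 genes, from 3 summits, against 7.9 over all genes. In replicate 2 they were 5.49 without fkh-7 and 0 in the 7 genes, against 1.8.

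Within their lists, the peaks at these genes ranged from strong to weak. The 14 summits of replicate 1 had signals from 2.06 to 11.3 with a median of 2.58, below the median of the list, and 3 of them were among its strongest 1000 peaks. The 19 pooled summits ran from 2.16 to 12.6, with a median of 2.895, as in the whole list, and again 3 were among the strongest 1000. The 4 summits of replicate 2 ran from 2.03 to 4.58 with a median of 2.82, above the list median of 2.32, and 3 of them were among its strongest 1000. That limit is loose in replicate 2, which has 1729 peaks. Its strongest 1000 reach down to a signal of 2.24, below the list median, and include the fkh-9 peak ranked 822 with a signal of 2.36. In replicate 1 and the pooled list the strongest 1000 end at signals of 5.28 and 5.46. At the 10 genes, the peaks among the strongest 1000 of replicate 1 and of the pooled list were all in fkh-7, and those of replicate 2 were all in fkh-9. Among the strongest 1000 peaks, 1 of the 10 genes was therefore marked in replicate 1, against a background of 5.08%, and 1 in the pooled list, against 5.11%. The strongest 1000 of replicate 2 also marked 1 gene, fkh-9, against 4.96%. None of the 9 peaks of the authors' final list lay in any of the 10 windows. The share of all genes with such a peak was not counted, and so short a list can mark few genes.

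**Figure D2:**
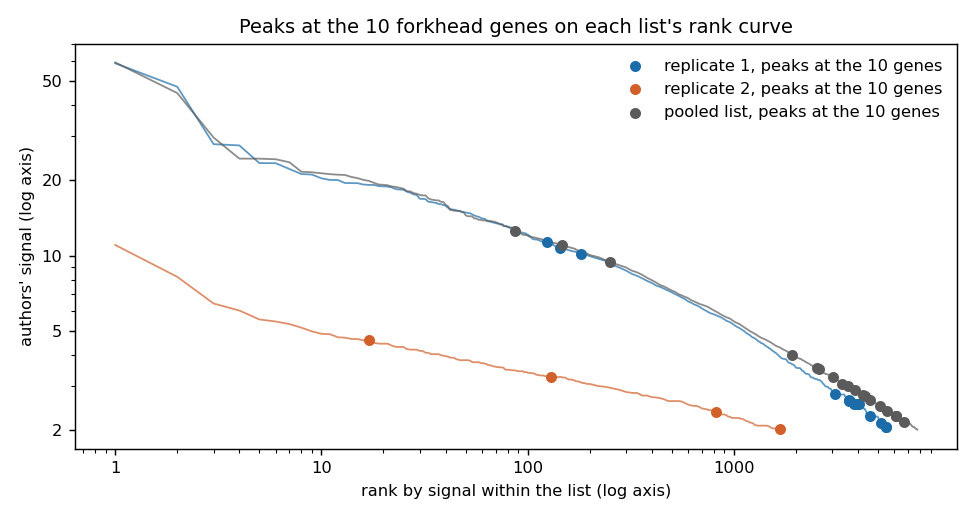
Authors' signal against rank within each ce11 list, both on log axes. Lines are the whole lists and points are the peaks at the 10 forkhead genes. The 3 points of replicate 1 with signals from 10.2 to 11.3 and the 3 pooled points from 9.45 to 12.6 are the fkh-7 peaks, and the remaining points of these lists lie at signals of 4.01 or less.

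The gene fkh-7 is counted among the FoxP-type forkhead genes. It lies on chromosome IV at 5584684-5610378 on the plus strand, and its annotation has 6 distinct transcript starts. Replicate 1 had 7 summits in its window, replicate 2 had 0, and the pooled list had 8. At least 7 replicate 1 summits were found in the windows of 10 of the 19973 genes, fkh-7 included, and 5 of these were among the 104 genes with a window as long as that of fkh-7 (27.7 kb) or longer. At least 3 summits among the strongest 1000 peaks of replicate 1 were found at 15 genes.

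The 3 strong summits of replicate 1 lay within 4266 bp of each other in the downstream part of the gene. The first, ranked 124 with a signal of 11.3, was in an intron of 16465 bp, 1300 bp upstream of an internal transcript start. The second, ranked 143 with a signal of 10.7, and the third, ranked 182 with a signal of 10.2, lay 1164 bp apart in a later intron of 3019 bp. The third was 1557 bp upstream of another internal start. All 3 shared the smallest q of the list, 0.00336, a tied value that does not rank them. Of the 5607 peaks of the list, 5248 had q of 0.05 or less.

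The pooled list had a peak at each of these places. Its summits were 82, 28 and 0 bp from those of replicate 1, with signals of 12.6 (rank 87), 9.45 (rank 251) and 11 (rank 147). Their q-values were 0.00541, 0.014 and 0.0171, and no other pooled peak at the 10 genes had q of 0.05 or less. Replicate 2 had no summit anywhere in the window, and its nearest summit lay 104 kb outside it. The strong fkh-7 peaks thus came from replicate 1 and from the list that includes its reads.

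The remaining 4 replicate 1 summits of fkh-7 had signals from 2.14 to 2.62. The first of them was in coding sequence of the first exon, 433 bp from the gene start, with a signal of 2.62 and a pooled summit at the same base (signal 2.28). The others lay in the 16465 bp intron at 3708, 12550 and 13988 bp from the gene start. The last of these, with a signal of 2.14, was also inside the non-coding RNA gene F26D12.99. Pooled peaks at 9391 bp (signal 3.27) and 22795 bp (signal 2.74) from the start overlapped no peak of a replicate.

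**Figure D3:**
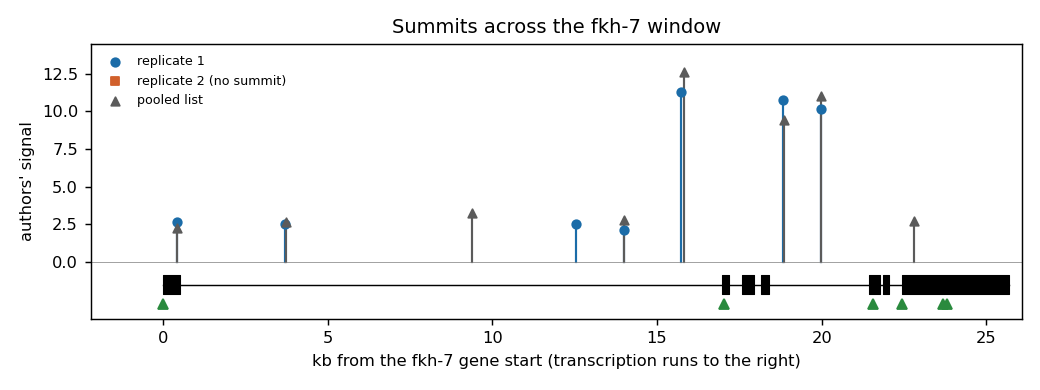
Authors' signal of each summit across the fkh-7 window against the distance from the gene start in kb, for replicate 1 (circles), replicate 2 (no summit) and the pooled list (triangles). Black boxes are annotated exons, merged over transcripts, and green triangles are transcript starts. The 3 strong summits stand between 15723 and 19989 bp, on either side of a group of internal exons.

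The strong fkh-7 peaks differed in the number of forkhead sites around their summits. The peak ranked 143 had 6 consensus matches within 100 bp, as capitals in the sequences above show. They include TATTTAC centred 5 bp and TGTTTGT centred 13 bp before the summit, and TGTTTAC 53 bp after it. The peak ranked 182 had 5 matches, with TGTTTAC centred 78 bp before and 73 bp after the summit, and an array of overlapping matches leading into the first of these. Neither peak had a match in either window of the same width centred 500 bp to the side. At least 5 matches were found at 0.554% of the 5594 nuclear peaks of replicate 1 and at 1.01% of the nuclear peaks among its strongest 1000. At least 6 were found at 0.179% and 0.302%. TGTTTAC occurred at least 2 times at 0.161% of all nuclear replicate 1 peaks. The limits of 5, 6 and 2 equal counts at these fkh-7 peaks, so the shares are descriptions and not a test.

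The peak ranked 124, the strongest of the 3, had 1 match, ACCAACA, centred 94 bp after the summit. Its flanking windows had 2 and 1 matches, so the summit had no more than either flank. The pooled summit of this peak, 82 bp further downstream, had 3 matches, which were ACCAACA at 12 bp, TGTTGAC at 24 bp and ACAAACA at 29 bp. The flanking windows of that pooled summit had 1 and 2 matches. The base composition also differed, with 49.3% G and C around the summit ranked 124 against 37.8% and 38.3% at the other 2. A count of matches depends on where the summit is placed, since a shift of 82 bp moved 2 matches into the window.

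Over all 10 genes, 10 of the 14 replicate 1 summits had a consensus match within 100 bp, against 57.4% of the nuclear peaks of that list. Of the 28 flanking windows of these summits 11 had a match, against 47% over the list. In replicate 2, 2 of 4 summits had a match, against 46.1%, and in the pooled list 12 of 19, against 54.3%. Of the flanking windows, 2 of 8 had a match in replicate 2, against 46.4% over that list. In the pooled list 16 of 38 flanks had one, against 46.7%. Over the replicate 2 list a match was thus no more frequent at summits than beside them. TGTTTAC lay at 3 of the 14 replicate 1 summits, against 6.19% over the list, and at 0 of their 28 flanks, against 2.63%. These 3 were the fkh-7 summits ranked 143 and 182 and a weak summit upstream of daf-16. In the pooled list TGTTTAC lay at 2 of 19 summits, against 5.25%, and at 0 of 38 flanks, against 2.52%. In replicate 2 it lay at 0 of 4 summits, against 2.61%, and at 1 of 8 flanks, against 2.27%.

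The gene fkh-9 encodes a forkhead factor that acts in neurons with insulin signalling and is needed for axon regeneration of touch neurons. It lies on chromosome X at 3816847-3826963 on the minus strand, and was the member with several summits in each list. Replicate 1 had 3 summits, all in the 6283 bp intron. Their signals were 2.63 at 693 bp from the gene start (rank 3639), 2.81 at 2989 bp (rank 3098) and 2.65 at 3230 bp (rank 3603). The last pair lay 241 bp apart in overlapping peaks.

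Replicate 2 also had 3 summits in fkh-9, but in other places. The strongest ranked 17 of 1729 with a signal of 4.58 and lay 6949 bp from the gene start, in an exon annotated as 5′ UTR of an internal transcript. A summit 205 bp away in an overlapping peak ranked 130 with a signal of 3.28. The remaining summit, with a signal of 2.36, lay in the 3′ UTR. The q-values of these 3 peaks were 0.351, 0.382 and 0.625. No summit of replicate 1 was closer than 3514 bp to any of them, and no peak of the replicates overlapped within the gene. The peak ranked 17 had 1 consensus match, TGTTTGT, centred 8 bp from its summit, and the other 2 had none. Over the whole replicate 2 list, 46.1% of summits and 46.4% of flanking windows had a match.

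The pooled list had 5 summits in fkh-9. Of these, 4 lay in the intron and overlapped replicate 1 peaks, with signals from 2.16 to 3.50. The remaining pooled summit, at 7204 bp from the start with a signal of 2.29, overlapped the replicate 2 peaks. The pooled summit with the signal of 3.50 had 5 consensus matches, shown in the fifth sequence above, of which ACAAACA at 4 bp was nearest to the summit. The window of the same width centred 500 bp to its left on the plus strand also had 5 matches, and that to its right had 0. At least 5 matches were found at 0.465% of the 7750 nuclear pooled peaks, a limit that equals the count at this summit. The pooled summit with the signal of 3.50 is thus matched by its left flank. The q of this pooled summit was 0.209, and the other 4 had q from 0.349 to 0.916.

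**Figure D4:**
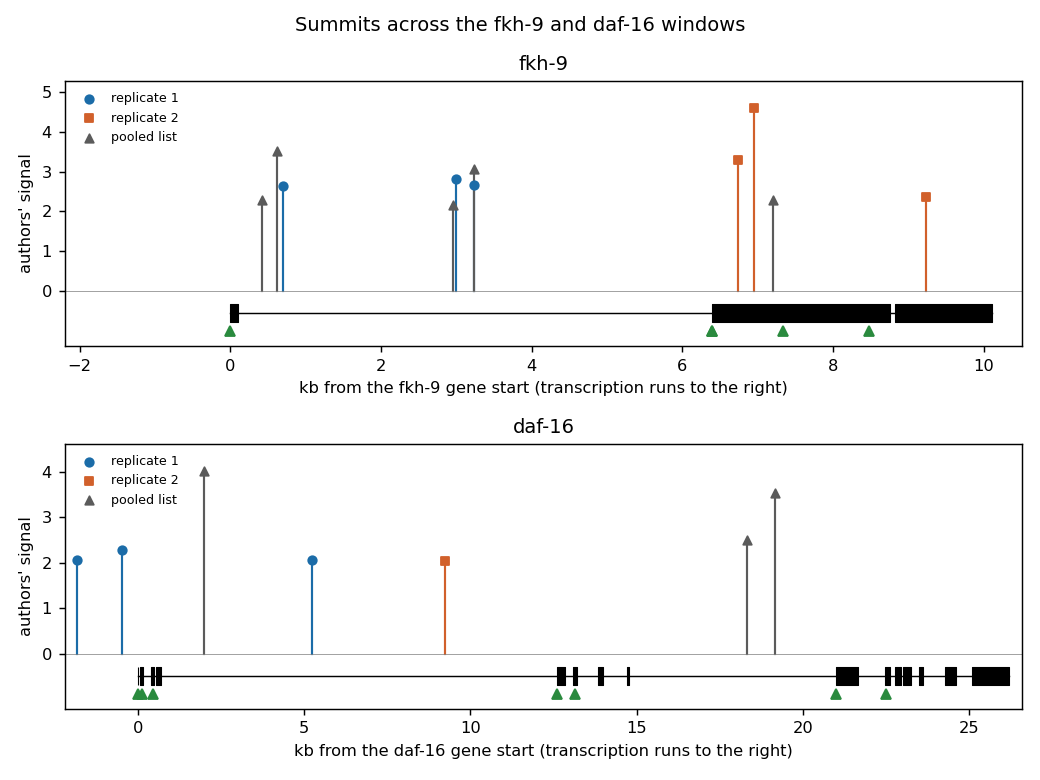
Authors' signal of each summit across the windows of fkh-9 (top) and daf-16 (bottom) against the distance from the gene start in kb, for replicate 1 (circles), replicate 2 (squares) and the pooled list (triangles). Black boxes are annotated exons, merged over transcripts, and green triangles are transcript starts. In fkh-9 the replicate 1 summits are in the intron and the replicate 2 summits in the exons further downstream, and in daf-16 no summit of one list coincides with that of another.

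The gene daf-16 lies on chromosome I at 10750498-10776703 on the plus strand and has the longest window of the 10, at 28.2 kb. Replicate 1 had 3 summits in it. They had signals of 2.06 at 1825 bp upstream of the gene start, 2.27 at 468 bp upstream and 2.06 at 5243 bp inside the gene, with ranks of 5480, 4578 and 5481 of 5607. The q-values were 0.0542, 0.0233 and 0.0547, so that 2 of the 3 missed 0.05. Only the summit at 468 bp upstream, which also lies in the non-coding RNA genes H36N01.1 and H36N01.4, had a TGTTTAC site within 100 bp among these 3.

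Replicate 2 had 1 summit in daf-16, at 9223 bp from the start with a signal of 2.03 (rank 1677 of 1729, q of 0.844). It lay in the same 11914 bp intron as the third replicate 1 summit, 3980 bp away. The pooled list had signals of 4.01 at 2004 bp, 2.51 at 18319 bp and 3.54 at 19159 bp, with q from 0.115 to 0.602. None of these 3 pooled peaks overlapped a peak of either replicate, and no replicate 1 peak of daf-16 overlapped a pooled peak. The insulin pathway output gene thus had a summit in all 3 lists, but at a different place in each and near the bottom of both replicate lists.

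The other members had at most 1 summit in a list. At fkh-10, on chromosome I at 10163475-10165132, replicate 1 and the pooled list had a summit at the same base, with signals of 2.54 and 2.90. It lay 1632 bp from the gene start in the 3′ UTR, which overlaps the 3′ UTR of C25A1.1, and in the upstream window of tag-72, so it cannot be given to fkh-10 alone. The gene unc-130, a FoxD-type gene that represses the dorsal guidance ligand gene unc-129, lies on chromosome II at 11281966-11283959. It had 1 pooled summit, 34 bp inside the gene in coding sequence, with a signal of 2.997 and q of 0.354. The gene fkh-8, a regulator of the genes of sensory cilia that works with the RFX factor DAF-19, lies on chromosome II at 6189623-6191393. It had 1 pooled summit, 97 bp upstream of its start, with a signal of 2.40 and q of 0.67, and the window of cpb-2 also holds it. Neither replicate had a peak over the unc-130 or fkh-8 summit.

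No list had a summit in the windows of lin-31, let-381, pes-1 or fkh-2. The gene lin-31 directs vulval cell fates downstream of MAP kinase, and let-381, a FoxF-type gene, directs non-muscle mesoderm. The genes pes-1 and fkh-2 have overlapping roles in the embryo, and fkh-2 also shapes the cilia of a class of olfactory neurons. Their windows ran from 4.12 to 6.48 kb, and the relaxed lists set no limit on weaker binding there. Around pes-1 the nearest summit was 14.2 kb outside the window in replicate 2, 92.4 kb in replicate 1 and 30.1 kb in the pooled list. Around lin-31 the nearest were 3.12 kb (replicate 1 and pooled list) and 2.47 kb (replicate 2) outside.

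Some summits lay outside the windows, at differing distances, and were not counted for the member. The nearest replicate 1 summit outside the let-381 window was strong, with a signal of 10.6 and rank 153, but lay 2374 bp beyond the gene's end, in an intron of the neighbouring gene hrpk-1. A replicate 1 summit with a signal of 12.3 and rank 95 lay 5179 bp outside the fkh-9 window. It was 7179 bp upstream of the gene start, in no annotated gene. The pooled list had peaks at both places, with signals of 11.95 and 11.8. A pooled summit with a signal of 3.19 lay 199 bp outside the fkh-7 window, and a pooled summit with a signal of 2.06 lay 911 bp outside that of fkh-2. Just inside, the weak replicate 1 summit of daf-16 lay 1825 bp upstream.

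Overlap between the replicates was rare over the whole lists, and none was found at the 10 genes. None of the 14 replicate 1 peaks overlapped a replicate 2 peak, where 1.62% of all 5607 did, and none of the 4 replicate 2 peaks overlapped a replicate 1 peak, where 5.03% of all 1729 did, so that a count of 0 is near the shares over the lists. The pooled list overlapped 10 of the 14 replicate 1 peaks (80% over the list) and 2 of the 4 replicate 2 peaks (20.6% over the list). At the 10 genes, 10 of the 14 replicate 1 summits and 13 of the 19 pooled summits were intronic. Over all protein-coding windows, counting each summit for every window that holds it, the intronic shares were 25.7% and 26.7%. Of the 4 replicate 2 summits, 3 lay in UTR exons, all in fkh-9, against 4.97% over all windows. The members with the most summits are genes with introns of 3019 to 16465 bp, and the part of intron length in these counts was not tested.

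Of the remaining 5 forkhead genes of the worm, 2 had a summit in replicate 1, 1 in replicate 2 and 2 in the pooled list. The shares over all genes were 23.8%, 8.51% and 30.7%, and no test was run on these few genes. The gene pha-4 had 11 summits in replicate 1 (119 per 100 kb of window), 1 in replicate 2 and 14 in the pooled list, with best ranks of 8, 6 and 10. It is also the gene whose product was tagged, and peaks of the native gene and of the transgene cannot be told apart here. The gene fkh-5 had 1 replicate 1 summit (signal 2.27) and 1 pooled summit (signal 2.90) at the same base, 514 bp upstream of its start. The genes fkh-3, fkh-4 and fkh-6, with windows of 3.62, 3.74 and 5.82 kb, had none in any list. Of the forkhead genes other than pha-4, only fkh-7 had a peak among the strongest 1000 of replicate 1.

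Genes that work with these factors were counted in the same way. Of 19 genes of the insulin pathway and partners of DAF-16, 12 had a summit in replicate 1, 0 in replicate 2 and 13 in the pooled list, where the shares over all genes were 23.8%, 8.51% and 30.7%. Their windows were long, with a median of 8.64 kb against 4.03 kb for all genes. They held 8.74 summits per 100 kb in replicate 1, against 5.67 over all windows. The strongest replicate 1 peaks of this list were at akt-2, an Akt kinase gene (signal 7.49), and at the sirtuin gene sir-2.1 (signal 7.36). These genes were named after their values were seen, as was smk-1, a cofactor of both DAF-16 and PHA-4 in longevity, which had 4 summits in replicate 1 with signals up to 2.82. Of 16 partners of the other forkhead factors, 7 had a summit in replicate 1, 1 in replicate 2 and 9 in the pooled list, against the same shares over all genes. Their windows had a median of 9.25 kb and held 6.71 summits per 100 kb in replicate 1, close to the 5.67 over all windows. Neither list's counts were tested against other genes. The gene with a summit in both replicates was tbx-2, a T-box gene of the pharynx, with top signals of 3.61 and 3.50.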

How the data were processed

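PHA-4 chromatin immunoprecipitation was sequenced in 2 replicate libraries of whole late embryos. The authors deposited narrowPeak lists, per the file headers and listing: in ce11, a list of peaks and background per replicate and for the pooled alignments, each made with 2 control alignments, and a final list by irreproducible discovery rate. Each peak carries a signal value deposited by the authors and a q-value on the −log10 scale, also as the authors' caller gave it. The sources used here name neither aligner nor caller. The ce10 lists were not used here, since the annotation is of ce11. All 15113 ce11 peaks lay within the chromosomes of the WBcel235 sequence.

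Peaks were ranked by signal within a list. Summits (start plus offset, 1-based) were assigned to windows from Ensembl release 115, and a summit could count for several genes. Sites were sought within 100 bp of summits and in flanks centred 500 bp away (Python 3.11.15). Peaks were called overlapping at 1 bp or more. The window and motif steps were tested on simulated data. No significance test was run: there is 1 group, and nothing was resampled. The genes, lists and named-gene rule (all members, the genes sharing their summits, the other forkhead genes, and list genes with a summit in both replicates) were chosen with earlier results of these data known.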

Additional observations from a re-analysis of the deposited data

How the results depend on the processing

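Counts of members and summits in the windows moved within 1.5 times of the values above with 1000 bp upstream, with the gene body alone, with any overlap of the peak interval and with summits assigned to the closest transcript start alone. With the last, however, the replicate 1 genes were daf-16, unc-130, fkh-7 and fkh-9, and fkh-10 was not among them. In the pooled list the same setting added fkh-2, which had no summit in its window in any list. With the gene body alone, the pooled list no longer held fkh-8. Keeping the strongest 1000 peaks left 1 member in replicate 1, 1 in replicate 2 and 1 in the pooled list, and 3 summits in replicate 1 and 3 in the pooled list. Keeping peaks with q of 0.05 or less left 4 members with 12 summits in replicate 1, and 1 member with 3 summits in the pooled list. It left 0 members and 0 summits in replicate 2, an outcome fixed in advance, since 0 peaks of that whole list had such a q. The share of all genes at this limit was not counted. Leaving out a replicate gave between 2 and 4 members, both for members with a summit in at least 1 replicate and for those with a summit in both. Within 50 bp of the summit, 1 replicate 2 summit at the members had the consensus. No paired analysis was possible because there is 1 group. Depth is unknown, so a window with no summit sets no limit on binding.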
